A study of Mus musculus with 2 samples.

Results

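Krtdap, Sbsn, Dmkn, Lor, Ivl, Flg, Sprr2d, Calm4, Lypd3 and Dsc1 are genes of the upper layers of the epidermis, and they were chosen by name, 10 of the 55487 genes in the deposited matrix. They are described here in cells of the thymus across marker-gated cell types and across 3 mouse strains. The cells came from thymi of female mice aged 6 weeks of the strains NOD, BALB/c and C57BL/6 (B6), 2 mice of each, with no treatment given in the labels. Leukocytes carrying CD45 were removed with magnets. Medullary thymic epithelial cells (mTEC) of the mTEClo class, negative for both Pdpn and CD104, were then sorted; each mouse had its own hashtag antibody, and all cells went into 1 droplet library with 3' chemistry. All 6 mice thus share 1 capture, hashtag and strain are tied by the labels, and nothing in the labels says which mice were processed on which day. The title of the hashtag sample gives both NOD hashtags the same replicate number, and they were kept as 2 mice because the design text states 2 mice per strain.

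Of 3447 barcodes, 2527 had at least 500 genes and under 15% mitochondrial UMIs (a UMI is a distinct captured RNA molecule), and 1705 of these had at least 80% of at least 100 hashtag UMIs from a single mouse. NOD mice had 120 and 122 such cells, BALB/c mice 412 and 595, and B6 mice 215 and 241. A cell was keratinocyte-gated when it held a UMI of at least 4 of 7 markers (Krt1, Krt10, Krt80, Grhl1, Grhl3, Cnfn and Spink5), none of which is among the 10 genes. The gate was passed by 167 cells; 42 that also passed the gate of another lineage were left out, and 125 keratinocyte-gated cells remained of 1429 epithelial cells. They numbered 8 and 17 in NOD mice, 19 and 44 in BALB/c mice, and 12 and 25 in B6 mice, which is 8.25% and 16.0%, 5.86% and 8.71%, and 6.22% and 12.3% of the epithelial cells. The gate cuts a range rather than a gap, since 84 cells lay 1 marker below it and 50 lay on it. The remaining 1192 epithelial cells with a single lineage were the comparison, with a median of 13789.5 UMIs per cell, against 19477 in the keratinocyte-gated cells. The gate's own markers averaged 2988 UMIs per 1000000 UMIs (CPM) for Krt10, 3746 CPM for Spink5 and 988 CPM for Cnfn in keratinocyte-gated sums, against 30.1, 136 and 5.88 CPM in other epithelial sums; the selection on these markers fixes that gap, so it is no check of the label. Summed markers of myeloid or dendritic cells, 8 genes, lay at 39.2 to 151 CPM in the keratinocyte-gated cells of each mouse (Itgax at 0) and at 257 to 587 CPM in the other epithelial cells. Summed thymocyte markers, 8 genes with Cd3e, Cd4, Cd8a and Rag1 at 0, lay at 0 to 73.4 CPM in the keratinocyte-gated cells of each mouse and at 5.76 to 71.3 CPM in the other epithelial cells. They came to 42 UMIs in 7.2% of keratinocyte-gated cells, and 33 of the 42 were Ptcra UMIs in 1 cell of the second B6 mouse. Of the fibroblast markers 4 of 5, and of the endothelial markers 3 of 4, were at 0 in keratinocyte-gated cells. Summed tuft cell markers, 8 genes, lay at 110 to 248 CPM there and at 612 to 4624 CPM in the other epithelial cells. The part of these markers in the results was not tested. Intervals and floors given below cover counting error only, and p-values measure the spread between these mice.

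The epidermis renews itself from a dividing basal layer, and cells that move up from it stop dividing, fill with keratin and build under their membrane a cornified envelope, a protein shell cross-linked by transglutaminases. In the medulla of the thymus some epithelial cells switch on the programs of peripheral tissues, skin among them, and such mimetic cells show tissue proteins to developing T cells. Involucrin (Ivl) is an early scaffold of the envelope, loricrin (Lor) its glycine-rich bulk protein, and small proline-rich proteins such as Sprr2d cross-bridge it. Profilaggrin (Flg) is stored in granules and yields filaggrin, which packs keratin filaments. Krtdap, suprabasin (Sbsn) and dermokine (Dmkn) are secreted products of the differentiating layers. Calm4 is a calcium-binding relative of calmodulin in skin, Lypd3 a surface protein of the Ly6 family, and Dsc1 a desmosomal cadherin that joins cells of the upper layers.

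The genes lay in a few neighbourhoods of the genome (GENCODE M21 on mm10, matched by gene identifier; all 10 protein-coding). Sbsn (ENSMUSG00000046056, chr7:30751471-30756134), Dmkn (ENSMUSG00000060962, chr7:30763756-30781063) and Krtdap (ENSMUSG00000074199, chr7:30787896-30791097) follow one another on the plus strand of chromosome 7, and Lypd3 (ENSMUSG00000057454, chr7:24636550-24641118, plus strand) lies elsewhere on it. Lor (ENSMUSG00000043165, chr3:92080271-92083142, minus strand), Sprr2d (ENSMUSG00000042212, chr3:92339140-92340873, plus strand), Ivl (ENSMUSG00000049128, chr3:92570902-92573735, minus strand) and Flg (ENSMUSG00000102439, chr3:93273523-93293686, plus strand) lie in the epidermal differentiation complex of chromosome 3. Calm4 (ENSMUSG00000033765) is at chr13:3837757-3838673. The 200 bases before the RefSeq start of 7 of the genes (GRCm38.p6) are shown because they share a motif. Capitals mark TGANTCA, a looser form of the AP-1 motif TGASTCA (S is C or G), and TATAAA, the TATA box, each read 5′ to 3′ along the gene. In Sbsn and Flg the match is TGAATCA, which the stricter form leaves out.
Krtdap, chr7:30787705-30787904, plus strand: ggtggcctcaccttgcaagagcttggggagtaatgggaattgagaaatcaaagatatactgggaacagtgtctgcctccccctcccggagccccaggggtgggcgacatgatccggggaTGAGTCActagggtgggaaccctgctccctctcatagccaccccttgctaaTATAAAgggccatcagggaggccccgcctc
Sbsn, chr7:30751271-30751470, plus strand: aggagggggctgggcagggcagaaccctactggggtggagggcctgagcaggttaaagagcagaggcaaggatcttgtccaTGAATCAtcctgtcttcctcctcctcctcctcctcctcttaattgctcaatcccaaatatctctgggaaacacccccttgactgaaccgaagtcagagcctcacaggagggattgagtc
Dmkn, chr7:30763556-30763755, plus strand: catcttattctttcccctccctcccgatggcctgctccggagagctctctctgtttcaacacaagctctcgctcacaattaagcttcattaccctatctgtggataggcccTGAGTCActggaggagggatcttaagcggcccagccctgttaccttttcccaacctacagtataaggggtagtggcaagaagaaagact
Lor, chr3:92083143-92083342, minus strand: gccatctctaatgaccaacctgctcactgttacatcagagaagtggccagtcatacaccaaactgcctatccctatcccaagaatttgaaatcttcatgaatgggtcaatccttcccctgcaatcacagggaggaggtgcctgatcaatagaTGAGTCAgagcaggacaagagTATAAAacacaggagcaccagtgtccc
Ivl, chr3:92573736-92573935, minus strand: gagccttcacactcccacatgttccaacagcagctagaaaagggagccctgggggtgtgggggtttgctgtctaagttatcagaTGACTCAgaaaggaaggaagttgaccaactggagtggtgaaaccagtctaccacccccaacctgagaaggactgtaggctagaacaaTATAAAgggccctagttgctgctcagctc
Flg, chr3:93273346-93273545, plus strand: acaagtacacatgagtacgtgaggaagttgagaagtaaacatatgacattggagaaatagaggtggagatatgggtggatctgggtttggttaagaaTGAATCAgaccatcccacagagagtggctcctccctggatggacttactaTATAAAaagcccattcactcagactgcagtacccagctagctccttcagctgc
Sprr2d, chr3:92338940-92339139, plus strand: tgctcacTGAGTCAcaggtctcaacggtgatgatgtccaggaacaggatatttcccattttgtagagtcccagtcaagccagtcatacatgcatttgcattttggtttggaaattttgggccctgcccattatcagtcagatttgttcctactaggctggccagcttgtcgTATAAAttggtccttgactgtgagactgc
Windows of 250 bases before the start were searched on both strands for both motifs, and for AACCNGTT, a form of the grainyhead motif. TGANTCA stood in 7 of 9 windows (77.8%), all but those of Calm4 and Lypd3 (the window of Dsc1 was not analysed here), and in 6.87% of 27025 promoter windows of mouse genes. Its first base lay 48 bases before the start in Lor, 81 in Krtdap, 89 in Dmkn, 103 in Flg, 116 in Ivl, 119 in Sbsn and 193 in Sprr2d. TATAAA stood in 5 of 9 windows (55.6%, against 13.0% of all), namely those of Krtdap, Lor, Flg, Ivl and Sprr2d, and AACCNGTT in 0 of 9 (1.71% of all). A match describes the letters of the window and does not show that a factor binds there.

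The first comparison asked how far each gene was restricted to keratinocyte-gated cells among the epithelial cells of the same mice. All 10 genes were higher in keratinocyte-gated cells by the quasi-likelihood test of edgeR at a Benjamini-Hochberg adjusted p under 0.05, in which 17.5% of the 13026 tested genes were higher. UMIs were summed per mouse over the cells of each side and mouse was a term of the fit, so the comparison is within mice. The median log2 difference was 7.46 over the 10 genes and -0.18 over all genes tested. The gate markers are themselves keratinocyte genes, so the gate and the 10 genes are not unrelated readouts. Dsc1, Ivl, Sprr2d, Flg and Lor averaged 0.561, 0.701, 1.37, 2.58 and 2.72 CPM in other epithelial sums. They passed the filter on low counts through the keratinocyte-gated sums, so a call of lower was hardly possible for them. The count of 10 beside 17.5% of genes carries that limit.

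Of the secreted proteins, Krtdap ranged over the 6 mice from 7947 to 16866 CPM in keratinocyte-gated sums (median 11495), against 9.61 to 295 CPM in the other epithelial sums (median 46.7). The sides did not overlap, and the log2 difference was 7.84 ± 0.81 (SE; edgeR adjusted p = 0.000549, higher in 6 of 6 mice). Sbsn lay at 976 to 1972 CPM (median 1546), against 1.97 to 20.9 CPM (median 12.7), a log2 difference of 7.22 ± 0.47 (SE; edgeR adjusted p = 1.10e-05). Dmkn lay at 2104 to 3992 CPM (median 2933), against 47.1 to 117 CPM (median 73.3), a log2 difference of 5.49 ± 0.17 (SE; edgeR adjusted p = 1.22e-08). These genes were high in the keratinocyte-gated cells of every mouse, and Dmkn had the highest level of the 3 in the other cells relative to its own level in the gate.

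The envelope proteins were also far apart between the sides but uneven between mice. Ivl lay at 131 to 720 CPM in keratinocyte-gated sums (median 285), against 0 to 1.79 CPM (median 0.566) in other epithelial sums, a log2 difference of 8.66 ± 0.44 (SE; edgeR adjusted p = 5.44e-07). Flg lay at 99.2 to 1197 CPM (median 484), against 0.523 to 5.38 CPM (median 2.04), a log2 difference of 8.10 ± 0.88 (SE; edgeR adjusted p = 0.000445). Lor lay at 0 to 1963 CPM (median 327), against 0.523 to 10.1 CPM (median 1.53). Its log2 difference was 7.51 ± 1.18 (SE; edgeR adjusted p = 0.00277), and it was higher in 5 of 6 mice, since the first B6 mouse had no Lor UMI in 12 keratinocyte-gated cells and 1.75 CPM in the other cells. Sprr2d lay at 8.76 to 5168 CPM (median 124), against 0 to 3.58 CPM (median 1.15), and its log2 difference of 7.26 ± 1.60 (SE; edgeR adjusted p = 0.0127) had the widest error of the 10. Sprr2 genes resemble one another closely, and how reads that fit several of them were counted is not given in the sources used here, so counts of Sprr2d are uncertain.

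Calm4 lay at 2019 to 4987 CPM in keratinocyte-gated sums (median 2971), against 0.523 to 175 CPM (median 15.7) in other epithelial sums, a log2 difference of 7.67 ± 1.11 (SE; edgeR adjusted p = 0.00240). Lypd3 lay at 415 to 614 CPM (median 523), against 6.56 to 23.8 CPM (median 11.1), a log2 difference of 5.58 ± 0.25 (SE; edgeR adjusted p = 1.11e-07). Its spread between mice in the gate, 515 ± 79.4 CPM (SD, n = 6), was the smallest of the 10 relative to the mean. Dsc1 (ENSMUSG00000044322, chr18:20084184-20114871, minus strand) lay at 28.7 to 241 CPM (median 82.1), against 0 to 2.69 CPM (median 0.137), a log2 difference of 7.40 ± 0.63 (SE; edgeR adjusted p = 2.78e-05). Each of these 3 genes was higher in the gate in 6 of 6 mice with no overlap of the sides. The fold moved by over 1.5 times without a single mouse for Lor (log2 6.88 without the first BALB/c mouse), Flg (7.41 without the second BALB/c mouse), Calm4 (8.30) and Dsc1 (8.56 without the second B6 mouse, both), and Sprr2d (8.03 with each BALB/c mouse left out in turn, 6.17 and 6.41 without the first and the second NOD mouse), and all 10 calls held each time.

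**Figure D1:**
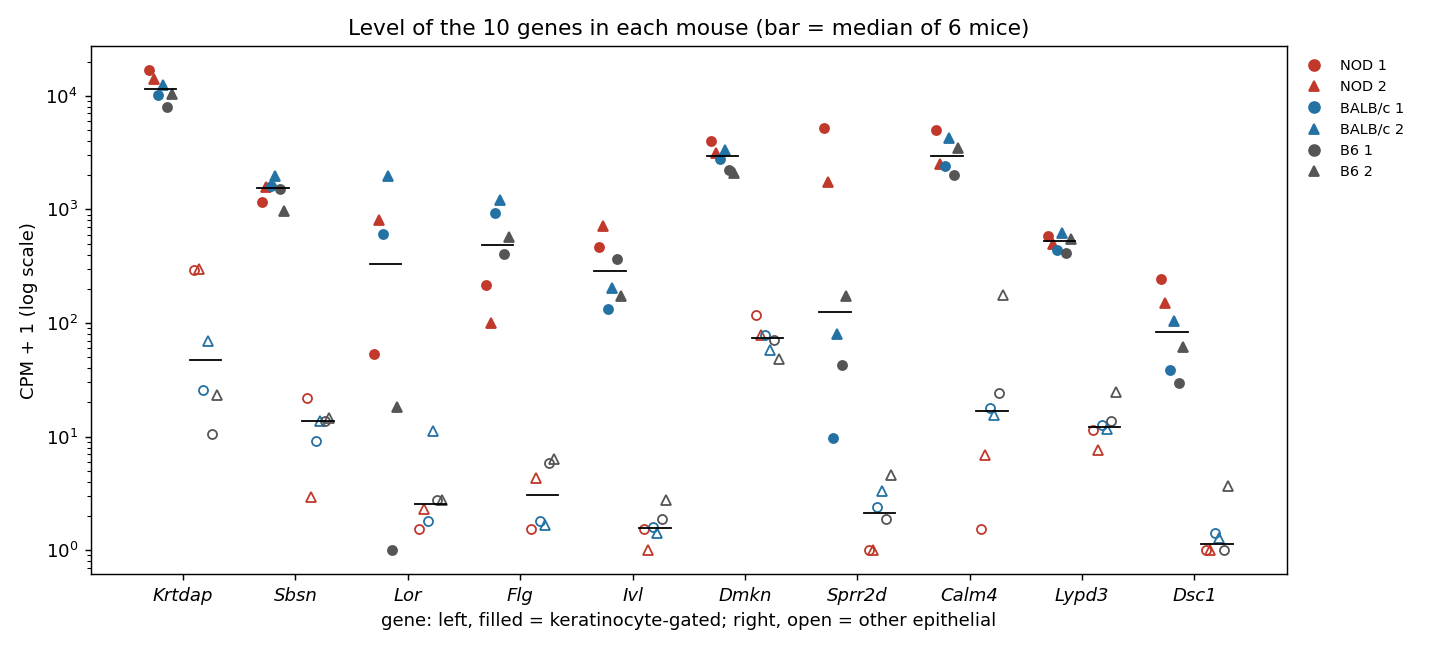
Level of each gene in the summed keratinocyte-gated cells (left, filled) and other epithelial cells (right, open) of each of 6 mice, as CPM + 1 on a log axis, with a bar at the median. Lypd3 and Dmkn sit close together in the gate, while Sprr2d spans 8.76 to 5168 CPM and Lor 0 to 1963 CPM there.

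Most RNA of the 10 genes came from these few cells. Keratinocyte-gated cells gave 85.5% of all UMIs of the 10 genes in cells with a mouse (63453 of 74198), with 93.5% of Sprr2d, 92.0% of Lor and 88.6% of Krtdap at the upper end, and 74.8% of Lypd3 and 74.7% of Dmkn at the lower end. Of the 42 cells left out for passing several gates, 38 held no leukocyte gate; they had a median of 28051.5 UMIs and 2114 CPM of Krtdap, against 12048 CPM in the pooled keratinocyte-gated cells. Another 8 barcodes that passed the gate had no mouse, of 822 such barcodes, and held 20499 CPM of Krtdap and 5423 CPM of Lor. Whether droplets with more than 1 cell add to the left-out cells was not tested, and no doublet caller was run.

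Other genes of the barrier were counted in the same contrast from lists that exclude the 10. Of 42 other genes of the epidermal differentiation complex, 12 were tested and 11 were higher in keratinocyte-gated cells (median log2 difference 7.15), and 11 of the 42 had no UMI. Examples were Hrnr (hornerin, a relative of filaggrin) at 10.05, Crnn (cornulin) at 8.70 and Crct1 at 7.55, on the log2 scale. A filter on low counts chose the genes tested. Kprp, Crnn and Hrnr, at 0, 0.0956 and 0.429 CPM in other epithelial sums, passed it only through the keratinocyte-gated sums. A call of lower was hardly possible for such genes, so 11 of 12 was in large part fixed by the filter. The same limit holds for genes near 0 CPM there in the lists below. All 7 genes of cross-linking and scaffold were higher (median 4.35), among them Tgm1, the transglutaminase that joins envelope proteins, at 5.55, envoplakin (Evpl) at 3.17 and periplakin (Ppl) at 2.52. All 12 barrier lipid genes were higher (median 4.75), among them Abca12, which loads lipid into lamellar granules, at 7.02, the ceramide synthase gene Cers3 at 5.38 and Sdr9c7 at 5.95. Of 12 proteases of shedding and processing, 11 were higher (median 5.88), with Klk13 at 9.11, Klk8 at 5.94 and Asprv1, the protease that trims profilaggrin, at 5.53, and St14 was not called. All 10 listed transcription factors of differentiation were higher (median 2.56), among them Gata3 at 5.81, Hopx at 2.91 and Zfp750 at 2.45.

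Desmosome genes were split. Of 13, 10 were higher in keratinocyte-gated cells (median over 13 of 2.01), with corneodesmosin (Cdsn) at 7.12, plakoglobin (Jup) at 2.53 and desmoplakin (Dsp) at 2.18. Dsg2 and Pkp2, the desmosomal cadherin and plakophilin common in simple epithelia, were lower, at -2.24 and -2.36. Of 6 basal and activated keratins, 2 were higher, Krt16 at 6.99 and Krt17 at 2.73 (median over 6 of 1.66). These lists were drawn up with earlier results on these cells known.

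The neighbourhoods differed. Within 50 kb of the Sbsn, Dmkn and Krtdap cluster (chr7:30701471-30841097), 3 of the 4 other genes were tested and all 3 had a negative log2 difference. Atp4a, a subunit of the gastric proton pump, and Ffar2, a receptor for short-chain fatty acids, were lower at -3.41 and -3.04, and Tmem147 was not called at -0.26. Between Lor and Flg (chr3:92080271-93293686), 34 of 48 other genes had a UMI, 14 were tested and 12 were higher, including Sprr1a at 6.68 and 2310046K23Rik at 10.88. Here too genes such as Prr9 and Kprp, at 0 CPM in other epithelial sums, passed the filter on low counts only through the keratinocyte-gated sums. Sprr2a3 and Gm9774 were tested there and not called. Late cornified envelope genes of the Lce3 group had their few UMIs in other epithelial cells only, 23 for Lce3b and 15 for Lce3d, each in a single mouse, and were too few to be tested.

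The second comparison set the keratinocyte gate against each other epithelial gate by itself, over 26 sums of at least 10 cells from 8 cell types. The first NOD mouse, with 8 keratinocyte-gated cells, was left out of the keratinocyte sums here, leaving 5. Tuft cells, chemosensory mimetic cells, gave 4 sums with none from NOD mice; immature mTEC (gated on Ccl21a, Krt5, Krt14, Pdpn, Itgb4 and Itga6 RNA) gave 5; cycling cells and Aire-stage mTEC gave 3 each; ciliated cells and ungated epithelial cells gave 2 each, all from BALB/c mice, and neuroendocrine cells gave 2, both from B6 mice. By edgeR, all 10 genes were higher in keratinocyte-gated cells than in Aire-stage cells (17.7% of 12270 genes were higher), cycling cells (21.2%), immature mTEC (19.9%) and tuft cells (22.4%). Against ciliated cells 9 were called (15.2% of genes; Sprr2d missed at an edgeR adjusted p of 0.0529), against neuroendocrine cells 9 (12.9%; Lor missed, adjusted p = 0.499; the B6 mice had 0 and 8 Lor UMIs in keratinocyte-gated cells), and against ungated epithelial cells 8 (5.7%; Sprr2d and Calm4 missed). Of the 70 gene and cell type pairs, 66 were called, and 57 without the first BALB/c mouse, 60 without the second and 63 with each B6 mouse left out in turn. The share of all genes called without a mouse is not given, so those counts have no background. The limit set by the filter on low counts, given above, holds for these pairs too.

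**Figure D2:**
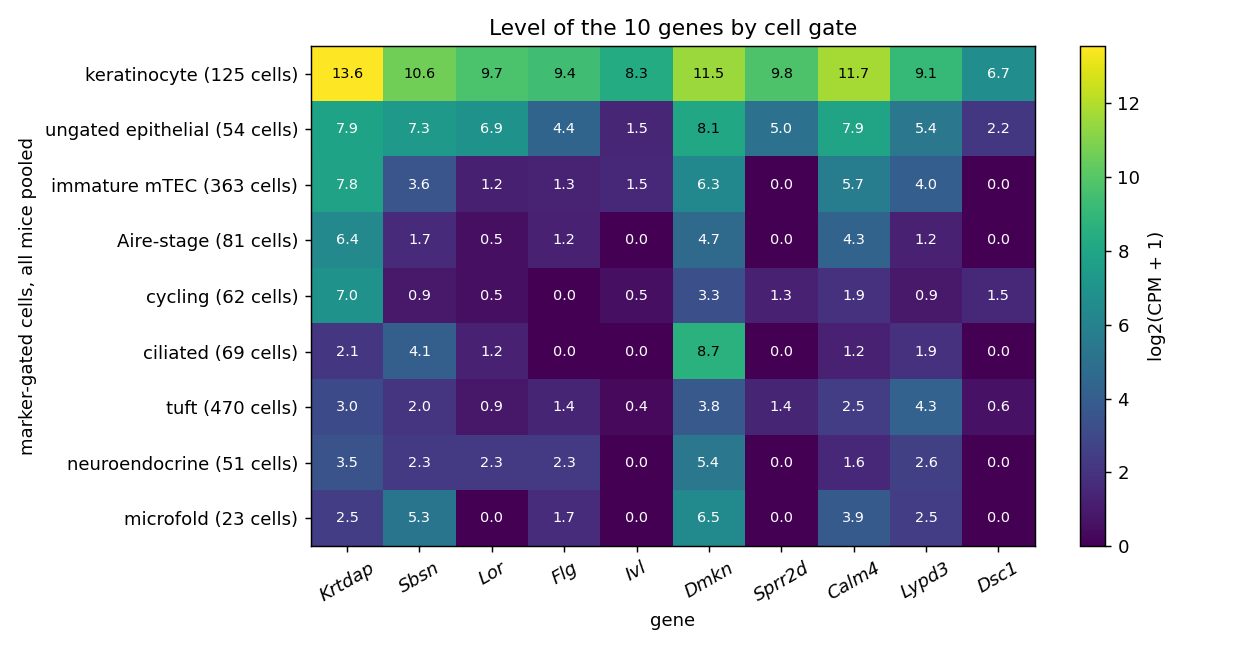
Level of the 10 genes (columns) in the larger epithelial gates (rows), as log2(CPM + 1) over the pooled cells of all mice. Not drawn are cells of several gates and the enterocyte-hepatocyte (8 cells, Calm4 at 1639 CPM), muscle (6 cells) and secretory gates (5 cells, Dmkn at 363 CPM). The keratinocyte row is the highest for every gene, Dmkn is visible in ciliated cells at 410 CPM, and Krtdap in immature mTEC at 220 CPM.

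Outside the keratinocyte gate the genes were not equally silent, and Dmkn in ciliated cells was the clearest case. Ciliated cells are mimetic cells with the program of airway multiciliated cells. Dmkn had 593 and 769 CPM in ciliated cells of NOD mice, 322 and 363 CPM in those of BALB/c mice, and 408 and 474 CPM in those of B6 mice, with 2 to 7 cells in each NOD and B6 mouse and 28 and 23 cells in the BALB/c mice. In tuft cells it had 39.5 and 0 CPM in NOD mice (7 and 6 cells), 19.7 and 8.52 CPM in BALB/c mice, and 11.7 and 11.9 CPM in B6 mice. Every ciliated value lay above every tuft value. A Dmkn UMI was present in 84.1% of 69 ciliated cells (median depth 18565 UMIs), against 12.8% of 470 tuft cells (11918.5 UMIs); after each cell was thinned to 5000 UMIs and shallower cells were left out, the shares were 69.7% and 6.05%. Over the sums of at least 10 cells, ciliated minus tuft was 4.71 ± 0.39 on the log2 scale (SE; edgeR adjusted p = 3.94e-09; 18.3% of genes higher), and Dmkn was the only one of the 10 genes called higher. Its level stayed below that of keratinocyte-gated cells, which were higher than ciliated cells by 3.09 ± 0.40 on the log2 scale (SE; edgeR adjusted p = 2.81e-06).

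Krtdap was the gene with the widest presence among immature mTEC. A Krtdap UMI was found in 37.5% of 363 immature mTEC-gated cells (median depth 10732 UMIs), against 9.57% of tuft cells at a depth no lower, and in 28.8% against 4.19% at 5000 UMIs per cell. Immature mTEC exceeded tuft cells by 4.09 ± 0.85 on the log2 scale for Krtdap (SE; edgeR adjusted p = 0.00135) and by 2.31 ± 0.35 for Dmkn (adjusted p = 1.14e-05); these were the 2 genes called, where 18.5% of genes were higher. Dmkn UMIs were in 29.2% of immature mTEC (15.7% thinned). Tuft cells are not known to make Krtdap, and their share of 9.57% is set beside that of immature mTEC as a comparison; whether free RNA gives it was not tested. Of 14 myeloid or dendritic cells, at a median depth of 33541.5 UMIs, 4 held a Krtdap UMI (28.6%; 14.3% thinned). Lor, Flg, Ivl, Sprr2d and Dsc1 were at or under 1.70% of cells in both types, and Sprr2d and Dsc1 had a UMI in 0 of 363 immature mTEC, which at this depth allows up to 3 cells with a UMI and sets no limit on cells that express the gene.

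Some other signals outside the gate came from single cells and some were spread. Calm4 had 244 UMIs in immature mTEC, of which 206 were in 1 cell of the second B6 mouse, and 162 of its 170 UMIs in 8 enterocyte-hepatocyte-gated cells were in 1 cell. Among 54 ungated epithelial cells, which are shallow at a median of 6722.5 UMIs, 109 of 130 Krtdap UMIs and 68 of 69 Lor UMIs were in 1 cell each. Sbsn had 24 UMIs in 12 of 69 ciliated cells, with at most 4 in a cell, and Dmkn 39 UMIs in 8 of 23 microfold cells, with at most 10. Lypd3 was spread thinly through tuft cells, with 131 UMIs in 68 of 470 cells (14.5%; 6.74% thinned) and at most 8 in a cell. A Lypd3 UMI was found in 5.80% of the deeper ciliated cells (3.03% thinned).

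The number of gate markers a cell held went with the level of the genes. The cells taken were the 1395 of the 1429 epithelial cells that held at least 3 of 5 general epithelial markers (Epcam, Krt8, Krt18, Cldn3 and Cldn4), pooled over mice, cells with several gates included, and 148 of them had at least 4 gate markers. Krtdap lay at 104, 67.8, 46.9 and 87.1 CPM in cells with 0, 1, 2 and 3 of the 7 markers, and at 1220, 8414, 12519 and 19964 CPM in cells with 4, 5, 6 and 7. Krtdap was flat below the gate and steep from it upwards. Dmkn climbed from the first step, with 26.3, 64.3, 105, 154, 505, 2693, 3265 and 3810 CPM at 0 to 7 markers. Calm4 also climbed below the gate, with 2.73, 11.7, 54.3 and 120 CPM at 0 to 3 markers, and had 134, 1886, 5010 and 4337 CPM at 4 to 7. Its UMIs stood in 3.17%, 6.03%, 9.31% and 15.8% of the cells with 0 to 3 markers. The Calm4 level of 1 class below the gate leans on 1 immature mTEC-gated cell of the second B6 mouse, which held 206 UMIs. The class of that cell is not given here, and the shares of cells count it once. Deeper cells can hold more markers, and the median depth was 9498, 17020, 23040.5 and 26992 UMIs at 0 to 3 markers and 20216.5, 19349, 22167 and 30753 UMIs at 4 to 7. Depth rose at each step up to 3 markers, where Dmkn and Calm4 climbed too, and its part in these levels was not tested. The last class held 11 cells.

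**Figure D3:**
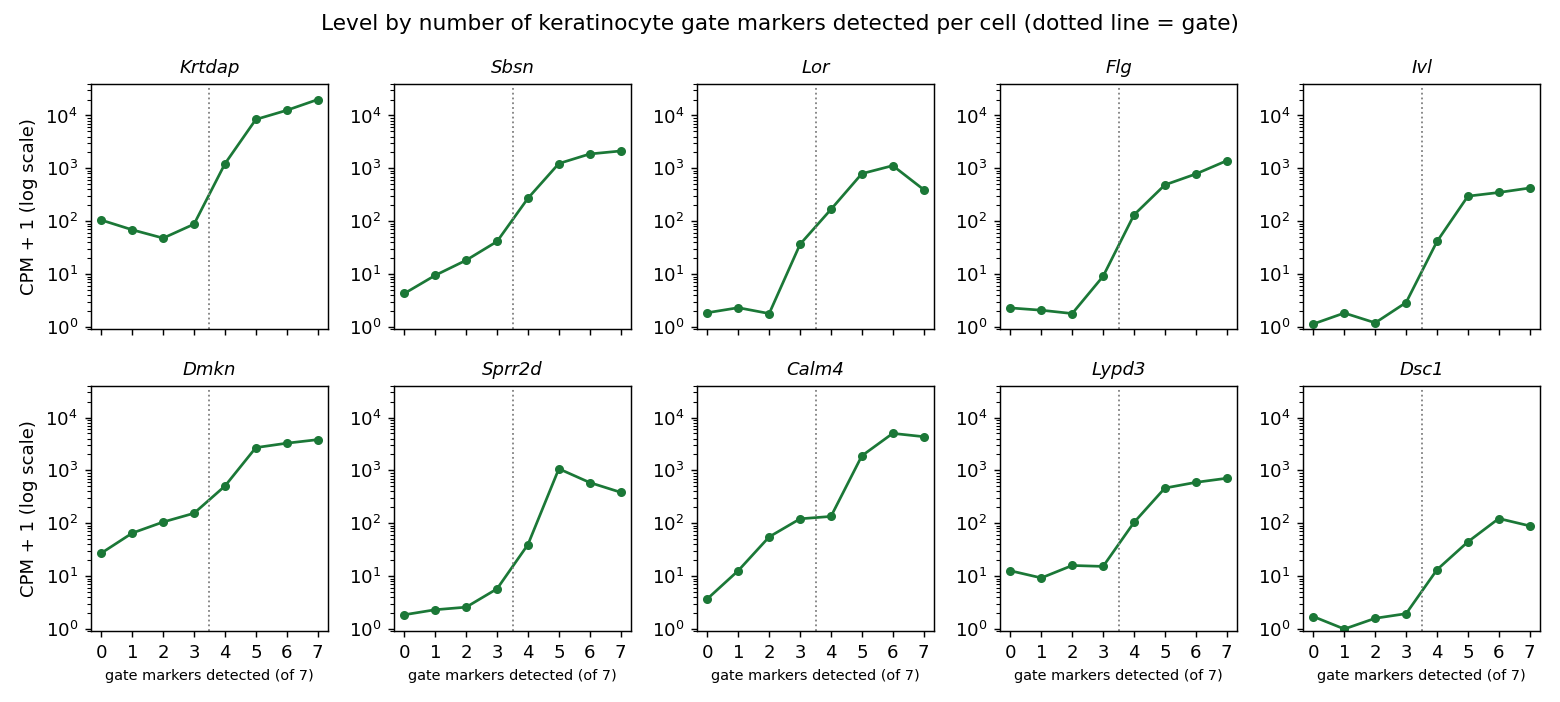
Level of each gene (CPM + 1, log axis) in epithelial cells with 0 to 7 of the keratinocyte gate markers, pooled over 6 mice; the dotted line is the gate. Krtdap is flat at 46.9 to 104 CPM up to 3 markers and reaches 8414 CPM at 5, while Dmkn climbs at every step.

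Within the 125 keratinocyte-gated cells the genes fell into broadly and narrowly present ones. A UMI was found in 115 cells for Dmkn, 113 for Lypd3, 110 for Krtdap, 106 for Sbsn and 95 for Calm4. For the envelope genes it was found in 63 for Ivl, 59 for Flg, 38 for Lor and 25 for Sprr2d, and for Dsc1 in 48. The shares in tuft cells were 12.8%, 14.5%, 9.57%, 4.68% and 5.53% for the first 5 and at most 1.70% for the others. After thinning to 5000 UMIs, 117 keratinocyte-gated cells remained and the order from broad to narrow ran from 88.0% for Dmkn to 17.9% for Lor and 16.2% for Sprr2d. The narrow genes were also the most uneven, with 94.7% of Sprr2d UMIs and 88.6% of Lor UMIs in their 10 highest cells, against 26.9% for Lypd3 and 31.0% for Dmkn. A keratinocyte-gated cell held a median of 6 of the 10 genes, 3 cells held all 10 and 2 held none, against a median of 0 and at most 3 in 25 leukocyte-gated cells, whose median depth was 28166 UMIs.

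The narrow genes differed in the genes found beside them, given here as shares with no test. All 38 cells with Lor also had Sbsn and Dmkn, against 84.8% and 92% of the 125 cells, and 26 (68.4%) had Flg, against 47.2%. Of the 59 cells with Flg, 54 had Krtdap (91.5%, against 88% of all) and 53 had Sbsn (89.8%, against 84.8%), which is near the share over all cells. Of the 25 cells with Sprr2d, 20 had Ivl (80%, against 50.4% of all), 19 had Dsc1 (76%, against 38.4%), 11 had Flg (44%, against 47.2%) and 10 had Lor (40%, against 30.4%). The NOD mice gave 5 and 9 of these 25 cells, and 8 and 17 of the 125. Neither depth nor strain was matched in these shares, and their part was not tested. Over the 125 cells, Pearson correlations of log2 counts per 10000 were 0.84 for Krtdap with Dmkn, 0.81 for Sbsn with Dmkn, 0.73 for Krtdap with Sbsn and 0.70 for Krtdap with Calm4. They were -0.08 for Flg with Sprr2d and 0.02 for Lor with Sprr2d, in cells that share 1 library and differ in depth and mouse.

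**Figure D4:**
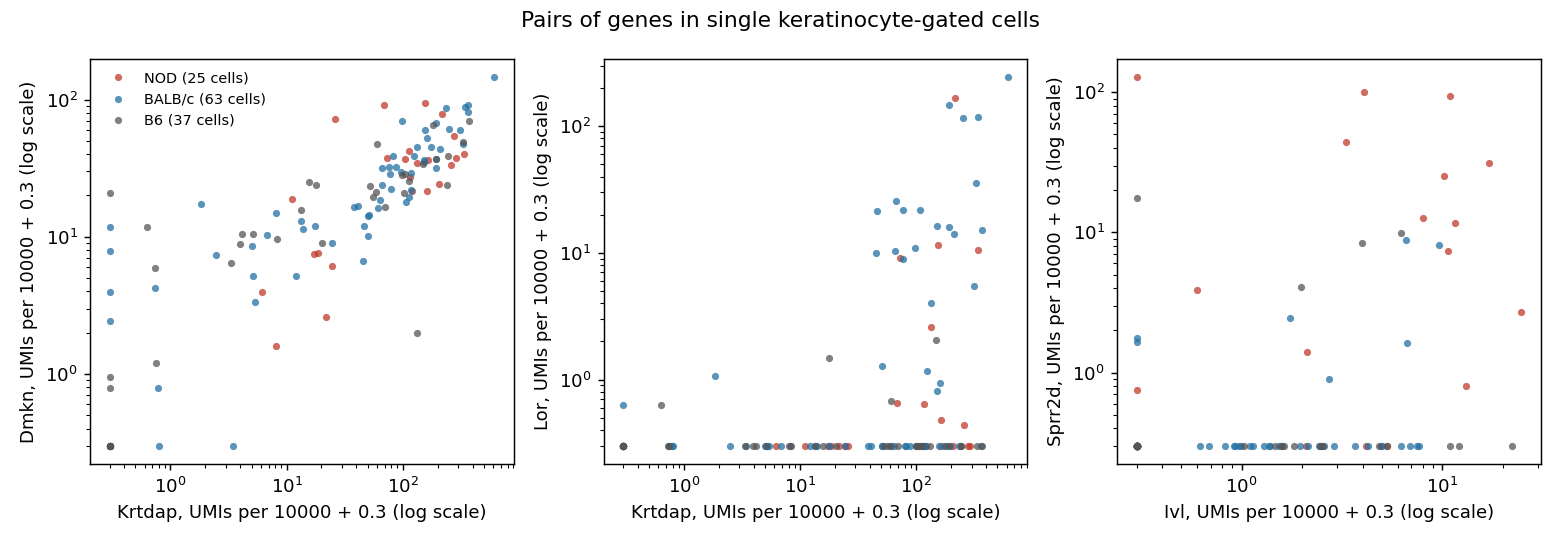
Pairs of genes in single keratinocyte-gated cells, as UMIs per 10000 + 0.3 on log axes, coloured by strain. Krtdap and Dmkn run together (left, r = 0.84 over 125 cells), while Lor against Krtdap (middle, r = 0.40) and Sprr2d against Ivl (right, r = 0.42) spread more widely, with most cells at no UMI of Lor or Sprr2d.

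The third comparison set the strains against each other within keratinocyte-gated cells, with 2 mice per strain and all 6 mice in 1 fit of 6970 genes. With 2 mice against 2, an exact permutation test of a single value cannot reach a two-sided p below 0.333, so the fit across genes is the test. The 10 genes were tested in each contrast. NOD minus BALB/c had 1 gene lower (0.56% of genes were lower) and 0 higher (0.631%) by edgeR (5 of the 10 at an unadjusted p under 0.05, as were 16.3% of all genes). NOD minus B6 had 0 higher (0.416%) and 0 lower (0.473%) by edgeR (6 at an unadjusted p under 0.05, as were 15.7% of the 6970 genes), and BALB/c minus B6 had 0 higher (0.273%) and 0 lower (0.287%; 2 at an unadjusted p under 0.05, and 10.2% of all genes).

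Flg was the gene called. It had 215 and 99.2 CPM in NOD mice, 937 and 1197 CPM in BALB/c mice, and 402 and 566 CPM in B6 mice. NOD mice were lowest and BALB/c mice highest, with no overlap between strains. NOD minus BALB/c was -2.63 ± 0.40 on the log2 scale (SE; edgeR adjusted p = 0.0199). The UMIs stood in few cells, 3 of 8 and 5 of 17 in NOD mice, 8 of 19 and 26 of 44 in BALB/c mice, and 6 of 12 and 11 of 25 in B6 mice. The call did not hold without the second BALB/c mouse (log2 -2.41, adjusted p = 0.0742) or with the gate at 5 markers (-2.91, 0.05004) or at 3 (-2.44, 0.0610). With cells of several epithelial gates kept it was -1.42 (adjusted p = 0.413), where 119 of the 171 epithelial Flg UMIs of the second NOD mouse were in a single such cell and 47 in the gate.

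Sprr2d showed the widest gap between strains, which was not called. It had 5168 and 1746 CPM in keratinocyte-gated cells of NOD mice, 8.76 and 78.3 CPM in those of BALB/c mice, and 41.5 and 171 CPM in those of B6 mice. Both NOD mice lay above the other 4, an order whose share among all genes tested is not given. The UMIs were in 5 of 8 and 9 of 17 NOD cells, in 1 of 19 and 6 of 44 BALB/c cells, and in 1 of 12 and 3 of 25 B6 cells, and a single cell gave 642 of 1371 UMIs in the first NOD mouse and 525 of 827 in the second, leaving 729 and 302 UMIs in the other NOD cells. The log2 difference was 6.29 ± 1.42 for NOD minus BALB/c (SE; edgeR adjusted p = 0.184) and 5.15 ± 1.34 for NOD minus B6 (adjusted p = 0.227).

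Ivl and Dsc1 were also higher in both NOD mice than in the other 4 without being called, and so was Krtdap, given below. How many of all genes tested have this order of mice is not given. Orders of the mice by strain, here and for the other genes in keratinocyte-gated cells, therefore have no background to be read against. Ivl had 467 and 720 CPM in NOD mice, 131 and 204 CPM in BALB/c mice, and 367 and 171 CPM in B6 mice, and NOD minus BALB/c was 1.95 ± 0.43 (SE, log2; edgeR adjusted p = 0.0817). With each B6 mouse left out in turn that difference was called by edgeR, at 1.96 (adjusted p = 0.0166, without the first) and 1.95 (0.0149, without the second). Dsc1 had 241 and 148 CPM in NOD mice, 37.9 and 104 CPM in BALB/c mice, and 28.7 and 60.5 CPM in B6 mice, and NOD minus B6 was 2.20 ± 0.56 (SE, log2; edgeR adjusted p = 0.130).

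Lor was unevenly spread. It had 52.8 and 813 CPM in NOD mice, 601 and 1963 CPM in BALB/c mice, and 0 and 17.3 CPM in B6 mice. In the second NOD mouse 344 of 385 UMIs were in 1 cell, and in B6 mice 8 UMIs were found in 4 of 25 cells of the second mouse and none in 12 cells of the first, which allows up to 3 of the 313559 UMIs summed there. B6 mice lay below all others, and BALB/c minus B6 was 6.99 ± 2.09 (SE, log2; edgeR adjusted p = 0.412).

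The broad genes differed less between strains. Krtdap had 16866 and 14139 CPM in NOD mice, 10095 and 12533 CPM in BALB/c mice, and 7947 and 10458 CPM in B6 mice, and NOD minus B6 was 0.90 ± 0.24 (SE, log2; edgeR adjusted p = 0.122). Without the first or the second BALB/c mouse, Krtdap (0.91 and 0.89, adjusted p = 0.0412 and 0.0483) and Dsc1 (2.22 and 2.19, adjusted p = 0.0366 and 0.0393) were called in NOD minus B6, and without the first NOD mouse Flg was (-2.16, adjusted p = 0.0371). Dmkn had 3992 and 3103 CPM in NOD mice, 2764 and 3306 CPM in BALB/c mice, and 2207 and 2104 CPM in B6 mice. The values of NOD and BALB/c mice overlapped, and B6 mice were lowest. Sbsn, Calm4 and Lypd3 had log2 differences between -0.24 and 0.60 in the 3 contrasts, none called.

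**Figure D5:**
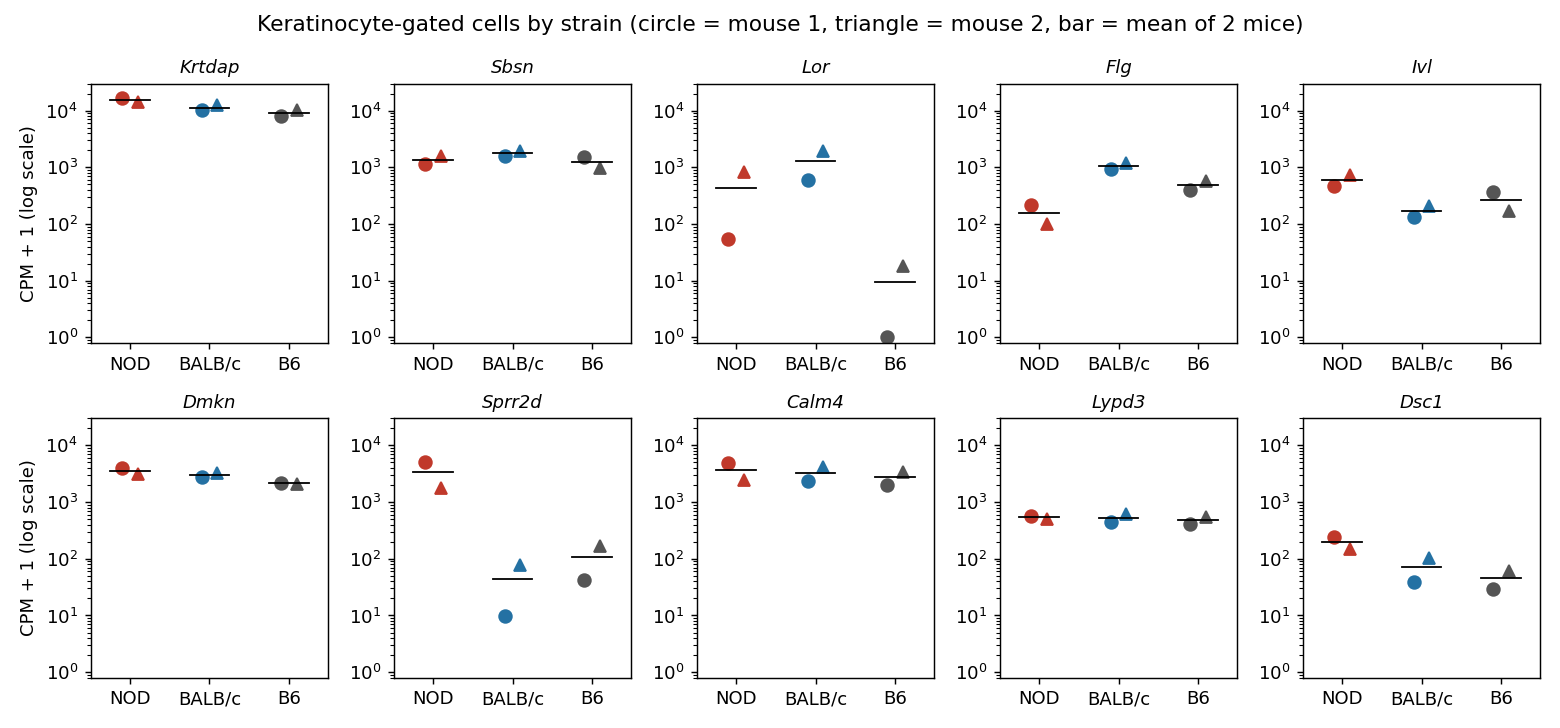
Level of each gene (CPM + 1, log axis) in the keratinocyte-gated cells of NOD, BALB/c and B6 mice; circle, mouse 1; triangle, mouse 2; bar, mean of 2 mice. Sprr2d is at 1746 and 5168 CPM in NOD mice and at most 171 CPM elsewhere, and Flg is lowest in NOD and highest in BALB/c mice.

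Summed over all epithelial cells of a mouse, where more gated cells and more RNA per cell cannot be told apart, 15334 genes were tested. NOD minus B6 had 2 of the 10 genes higher by edgeR (13.5% of genes were higher), NOD minus BALB/c the same 2 (3.67%), and BALB/c minus B6 had 0 higher (5.28%) and 0 lower (5.28%; 0 at an unadjusted p under 0.05, and 27.2% of all genes). Dmkn had 573 and 776 CPM in NOD mice, 290 and 393 CPM in BALB/c mice, and 294 and 357 CPM in B6 mice. It was 1.15 ± 0.22 higher (log2, SE) in NOD than in B6 mice (edgeR adjusted p = 0.0104) and 1.08 ± 0.21 higher than in BALB/c mice (adjusted p = 0.0303). Sprr2d had 604 and 402 CPM in NOD mice, 2.02 and 9.48 CPM in BALB/c mice, and 4.49 and 25.1 CPM in B6 mice, and was 5.17 ± 1.0 higher (log2, SE) in NOD than in B6 mice (edgeR adjusted p = 0.0277) and 6.45 ± 1.05 higher than in BALB/c mice (adjusted p = 0.0410). In NOD minus B6 the share of 2 in 10 is near that of all genes.

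These epithelial calls rested on few mice. For NOD minus B6, Dmkn was not called without the first B6 mouse (1.02, adjusted p = 0.0659), and Sprr2d was not called without any one of the NOD or B6 mice (log2 4.43 to 6.90, adjusted p = 0.0581 to 0.118). For NOD minus BALB/c, Dmkn was called with the first NOD mouse left out and not called with any of the other 5 left out (0.85 to 1.35, adjusted p = 0.0523 to 0.149). Sprr2d in NOD minus BALB/c was not called without the first B6 mouse (6.46, adjusted p = 0.0510), the second (6.45, 0.0511) or any one of the NOD or BALB/c mice (5.81 to 8.06, adjusted p = 0.113 to 0.167). Over all 15 alternatives, Sprr2d lost its call in 6 for NOD minus B6 and in 8 for NOD minus BALB/c. Leaving out the deepest 5% of cells was among them, and not every one is named here.

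Krtdap in immature mTEC differed between NOD and BALB/c mice in each of 7 alternatives, where the other strain contrasts had 15 or 16. The 7 left out a mouse or changed the normalization or the filter. Other gate cuts, hashtag shares, DESeq2 and leaving out the deepest cells were not tried for it, so the contrasts cannot be ranked by how well they held. Krtdap had 617 and 622 CPM in immature mTEC of NOD mice, 76.9 and 105 CPM in those of BALB/c mice, and 142 CPM in those of the second B6 mouse (13 cells); the first B6 mouse, with 9 cells and 16.3 CPM, was left out of the fit. Both NOD mice lay above all others. A Krtdap UMI was found in 22 of 41 and 35 of 51 NOD cells, in 22 of 86 and 49 of 163 BALB/c cells, and in 3 of 9 and 5 of 13 B6 cells. The median depth was 10581 and 8175 UMIs in NOD mice and 12379 and 10187 UMIs in BALB/c mice, so the depths overlapped. NOD minus BALB/c was 2.87 ± 0.21 (SE, log2; edgeR adjusted p = 1.07e-10), the only call among the 5 of the 10 genes tested there (9776 genes tested, 2.92% higher), and it ranged from 2.65 to 3.16 over 7 alternatives. With the single highest cell of each mouse set aside, 272 of 349 and 271 of 365 UMIs remained in NOD mice, against 66 of 91 and 192 of 216 in BALB/c mice. No Krtdap UMI was found in the 7 and 6 tuft cells of the NOD mice. With a UMI in 9.57% of all tuft cells, so few cells can hold none, and this sets no limit for NOD mice. In cycling cells Krtdap had 307 and 234 CPM in NOD mice (13 and 11 cells) and 6.84 and 19.6 CPM in BALB/c mice (7 and 24 cells), but 140 of the 161 UMIs of the first NOD mouse were in 1 cell. In Aire-stage cells the strains overlapped, with 108 and 3.27 CPM in NOD mice (12 and 9 cells) and 14.4 and 188 CPM in BALB/c mice (23 and 26 cells), where 38 of 41 UMIs of the first NOD mouse and 134 of 135 of the second BALB/c mouse were in 1 cell each. Neither contrast was tested.

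The genes whose levels ran most like each of the 10 over the 26 sums (Pearson r of log2 CPM, a description over sums that share mice) included none of the gate markers. They were Ephx3 (0.893) and Blmh (0.885) for Krtdap, Lipm (0.934) and Clic3 (0.929) for Sbsn, and Cebpb (0.944) and Rhbg (0.937) for Dmkn. For the envelope genes they were Gm10113 (0.869) and Klk10 (0.856) for Lor, Slc10a6 (0.95) for Ivl, Klk7 (0.964) and Klk13 (0.944) for Flg, and Sprr1a (0.872) and Slc5a1 (0.860) for Sprr2d. For the other 3 they were Gsta1 (0.953) and Il1f9 (0.941) for Calm4, Kif1c (0.944) and Jup (0.915) for Lypd3, and Aadacl2 (0.972) and Them5 (0.969) for Dsc1. For the mean of the 10 genes they were Ide (0.974), Endou (0.970), Teddm3 (0.966), Stfa3 (0.963), Slc5a1 (0.963), Aadacl2fm1 (0.960), Pnpla1 (0.958), Gm9696 (0.956), Tprg (0.955) and Il1f6 (0.954).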

How the data were processed

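The deposited values are raw UMI counts per gene and hashtag in each barcode, for which the submitters' processing notes name Cell Ranger 7.0.0 and mm10; the annotation release and the treatment of reads that fit several genes are not given in the sources used here. The matrix also holds 9 hashtags of no mouse in this pool, which were not used. Sums per mouse held 265273 to 868249 UMIs over keratinocyte-gated cells and 2193976 to 9068467 over all epithelial cells.

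A gate needed a UMI of at least 4 of 7 markers for keratinocytes, and for other gates of at least 3 and at least 50% of the list; cells with several lineages were left out. UMIs were summed per mouse and tested with edgeR 4.0.16 (TMM, filterByExpr, robust quasi-likelihood test) in R 4.3.3, with mouse as a term between gates and strain as the term between strains, an adjusted p of 0.05 over all genes tested as threshold, and DESeq2 1.42.0 as an alternative. In counts simulated from these sums edgeR called 100% of 4-fold and 90% of 2-fold changes between gates. Within keratinocyte-gated cells, NOD minus B6, it called 99% of 4-fold and 27% of 2-fold changes. Changes were set only in genes of higher counts, and all genes had 1 fixed spread. These shares therefore do not cover genes held by few cells.

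The genes and lists were chosen with earlier results of these data known. The cut of the gates, the contrasts with tuft cells and the strain fit in immature mTEC were added after the data were seen, as were the alternatives that keep cells of several gates or leave out the deepest 5% of cells. All 10 genes are reported in each comparison; of each list, up to 3 called genes with the smallest p are named, and other genes named (Dsg2, Pkp2, St14 and the neighbours) were picked after their values were seen. In the fits between gates the pairing comes from the same mouse. Mice with the same number in B6 and BALB/c did not deviate together (correlation -0.024 in keratinocyte-gated cells). For likeness, the 2 most similar genes of each of the 10 are named, of which 1 is not reported here.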

Additional observations from a re-analysis of the deposited data

How the results depend on the processing

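All 10 genes stayed called between keratinocyte-gated and other epithelial cells in each of 16 alternatives. The size of the difference moved by over 1.5 times without the replicate block for mouse (log2 6.86 for Krtdap, 6.66 for Calm4 and 9.87 for Sprr2d) and with the gate at 5 markers (6.35 for Sbsn, 6.92 for Lor, 6.69 for Flg, 7.17 for Ivl, 6.66 for Sprr2d and 6.73 for Dsc1), and with the gate at 3 markers (8.71 for Lor and 9.03 for Flg) and by DESeq2 (6.78 for Lor). Of the 70 pairs of gene and cell type, 66 were called, and 57 to 67 when a mouse was left out; with sums of at least 5 cells, which add 2 cell types, 85 of 90 were called. For these altered fits the share of all genes called is not given. Krtdap in immature mTEC (7 alternatives) and Krtdap and Dmkn against tuft cells (9 alternatives) kept their calls in every alternative run. Other gate cuts, hashtag shares and DESeq2 were not among these alternatives. Calls between strains within keratinocyte-gated cells and over all epithelial cells did not hold in every alternative, and the cause was not tested. Within keratinocyte-gated cells, DESeq2 called 1 gene higher in NOD minus B6 (Sprr2d), 1 in BALB/c minus B6 (Lor) and 2 in NOD minus BALB/c (Ivl and Sprr2d). With no filter on low counts 4 were higher (Krtdap, Ivl, Dmkn and Dsc1) and 1 lower (Flg) in NOD minus B6, 1 higher in BALB/c minus B6 (Flg) and 2 higher in NOD minus BALB/c (Ivl and Dsc1). The share of all genes called in each alternative is not given here, so these counts have no background to be read against. Without the deepest 5% of cells 1 gene (Flg) was lower in NOD minus B6. The lower call in NOD minus BALB/c (Flg) became 0 with the gate at 5 or at 3 markers and with cells of several epithelial gates kept. Leaving out a mouse gave 0 to 2 higher and 0 to 1 lower in NOD minus B6, and 0 to 1 higher and 0 to 1 lower in NOD minus BALB/c.

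Over all epithelial cells DESeq2 called 5 genes higher in NOD minus B6 (Lor, Ivl, Dmkn, Sprr2d and Dsc1), 1 in BALB/c minus B6 (Lor) and 4 in NOD minus BALB/c (Ivl, Dmkn, Sprr2d and Dsc1). Here too the share of all genes called in each alternative is not given. With a hashtag share of at least 90% 1 (Sprr2d) was higher in NOD minus BALB/c. Without the deepest 5% of cells 1 (Dmkn) was higher in NOD minus B6 and 0 in NOD minus BALB/c. Leaving out a mouse gave 0 to 3 higher in NOD minus B6 and 0 to 2 in NOD minus BALB/c. B6 and BALB/c mice with the same replicate number did not deviate together (correlation of deviations -0.024 in keratinocyte-gated cells and 0.078 over all epithelial cells). With 2 mice per strain this cannot show whether they were handled together. With the replicate number as a block over these 4 mice, 1 gene (Lor) was higher in keratinocyte-gated cells, and 1 (Lor) was higher and 1 (Sprr2d) lower over all epithelial cells.

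No difference that changed sign was called, and each is given on the log2 scale. In keratinocyte-gated cells Lypd3 in BALB/c minus B6 was -0.0055 with the gate at 3 markers and -0.11 with cells of several epithelial gates kept, Sbsn in NOD minus BALB/c was 0.0059 with such cells kept, and over all epithelial cells Lor in NOD minus BALB/c was 0.012 at a hashtag share of at least 90%. Without a mouse in turn, BALB/c minus B6 in keratinocyte-gated cells ranged from -0.20 to 0.38 for Lypd3, -1.14 to 0.0065 for Ivl, -0.24 to 0.69 for Calm4, -3.63 to 0.20 for Sprr2d and -0.33 to 1.36 for Dsc1. NOD minus B6 there ranged from -0.037 to 0.65 for Sbsn and -0.0060 to 1.05 for Calm4, and NOD minus BALB/c from -0.29 to 0.83 for Calm4 and -0.077 to 0.48 for Lypd3. Over all epithelial cells BALB/c minus B6 ranged from -0.35 to 1.07 for Flg, -0.18 to 0.29 for Dmkn, -0.52 to 1.60 for Dsc1, -0.68 to 0.45 for Krtdap, -2.87 to 0.45 for Sprr2d, -1.27 to 0.65 for Calm4, -0.78 to 0.20 for Lypd3 and -0.40 to 0.47 for Sbsn. NOD minus B6 there ranged from -0.0016 to 1.64 for Calm4 and -1.39 to 0.41 for Flg, and NOD minus BALB/c from -4.12 to 1.09 for Lor and -0.034 to 1.21 for Sbsn.

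At 2 mice per strain and 8 to 44 gated cells per mouse, levels of genes held by few cells lean on the highest ones: 1 cell gave 46.8% and 63.5% of Sprr2d UMIs in the NOD mice, 57.1% and 89.4% of Lor UMIs in the NOD mice and 34.5% and 38.8% of Lor UMIs in the BALB/c mice. A 2-fold strain difference would mostly be missed, since 27% of such changes were called in counts simulated for keratinocyte-gated cells, NOD minus B6.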
